A study of Mus musculus with 8 samples.

Results

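The craniofacial myogenic regulators described here are 9 genes that act in muscle precursors, of the jaw or of other sites. They are the 4 myogenic factors Myf5, Myod1, Myog and Myf6, the repressors Msc and Tcf21, the receptor Met, and the transcription factors Lbx1 and Ebf3. They were chosen by name, and a probe set belonged to the group when its annotation listed exactly 1 symbol and that symbol was a member. This gave 15 probe sets and 9 of the 18194 genes measured, and the probe set with the highest mean over the 8 arrays stood for each gene.

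Total RNA of whole mandibular arches of C57BL/6J embryos at day 11.5 was hybridised to Affymetrix arrays, 4 from Alk5 fl/fl; Wnt1-Cre mutants and 4 from Alk5 fl/fl controls. Both groups carry the floxed allele of Alk5, another name of the TGF-beta type I receptor gene Tgfbr1, and sex was not determined. Wnt1-Cre is active in the neural crest, which forms most of the arch mesenchyme, and the muscle precursors are mesoderm that this driver does not target. No Cre driver is named for the controls, and effects of the driver and of the inactivation cannot be told apart. The study addressed how the loss of the receptor in crest cells affects the precursors of the craniofacial muscles beside them. The labels do not say that the 4 samples of a group came from separate embryos or litters, and each p-value covers only the spread among them, which may be technical.

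The myogenic factors are basic helix-loop-helix proteins. They pair with E proteins, bind the short DNA sequence called an E-box, and switch on the genes of the contractile apparatus and of muscle fusion. In the head, Tcf21 and Msc act upstream of Myf5 and Myod1 in the precursors of the jaw muscles, without the Pax3 that starts the programme in the trunk. Myod1 commits cells to the muscle fate, Myog drives their differentiation, and Myf6 acts early and again in late muscle fibres.

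None of the 9 regulators passed the test of a difference between mutant and control arches. In limma, with Benjamini-Hochberg adjustment over all 18194 genes and a threshold of 0.05, 0 of 9 passed, against a background of 2.14% of all genes. At an unadjusted p under 0.05, again 0 of 9 passed, against 13.5% of all genes. The groups overlapped for every member, whereas they did not overlap for 10.3% of all genes, with the mutants higher for 3.27% and lower for 7.02%. Over all 15 probe sets of the members, 0 passed in the fit across all probe sets, against 0.845% of all probe sets. The log2 fold changes, mutant minus control, were above 0 for 7 members and below 0 for 2 (Myod1 and Myog, both above 0 after quantile normalization), with a median of 0.17 against -0.01 over all genes. In whole arches, fewer cells of a type and less RNA per cell cannot be told apart. The arrays also do not tell which cells of the arch gave the signal of a member.

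**Figure D1:**
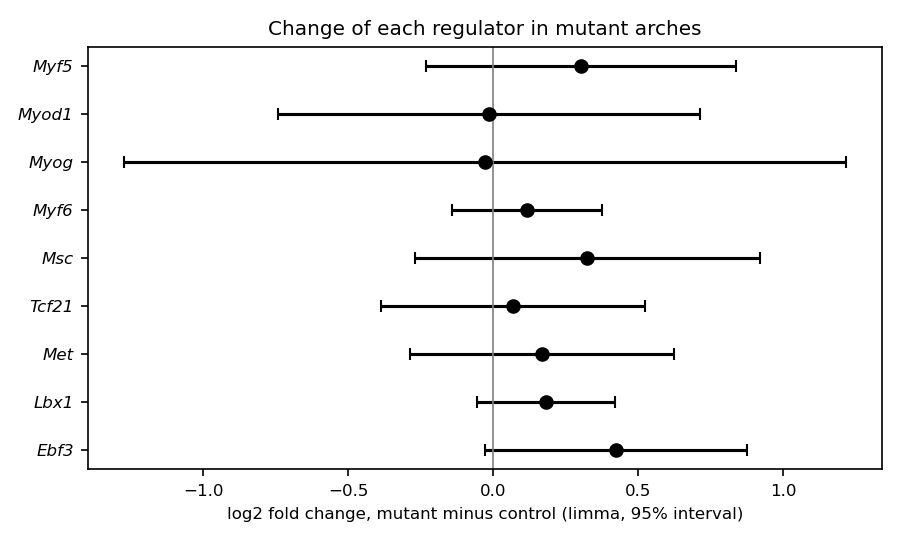
Log2 fold change of each regulator, mutant minus control, on the horizontal axis, with the genes down the page; points are limma estimates and bars are 95% intervals (n = 4 arrays each). Every interval spans 0, and that of Myog, from -1.27 to 1.22, is the widest.

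Tgfbr1, the floxed gene, gave no lower signal in the mutants. The brightest probe set read 12.97, 12.99, 12.98 and 12.99 on a log2 scale in the 4 mutants, and 12.82, 12.71, 12.90 and 12.73 in the 4 controls. The mutants were higher without overlap, by 0.19 (adjusted p = 0.232 in limma; exact permutation p = 0.0286, the lowest value that 70 relabelings allow). It passed in 1 of 17 alternatives, with a trended, robust variance (adjusted p = 0.028), and the other probe sets differed by 0.51 and 0.30. Whether the probe sets lie within the deleted part of the gene is not known here, so they do not check the labels.

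Each array was summarised by its log2 values. Their median lay between 6.28 and 6.42 on the 8 arrays. Mutant replicate 3 stood apart: its values had a standard deviation of 2.42 over probe sets, against 2.52 to 2.56 on the others. Its lowest correlation with another array was 0.986, and the pairs without it correlated at 0.993 to 0.997. Of the marker genes, 8 of 10 for macrophages rose (median 1.16, sums of linear signal 3317 to 4492 in mutants and 1676 to 1846 in controls; C1qa by 1.40). Of the others, 1 of 8 neuronal markers fell (Tubb3, by 1.67, adjusted p = 0.013), 1 of 7 heart muscle markers rose (Myl7, by 0.43), and none passed among 7 mesenchymal, 8 erythroid, 7 endothelial, 7 epithelial and 5 somite markers. The Myl7 call was lost in 11 of 16 alternatives, among them leaving out any array but mutant 3, and the Tubb3 call was lost without mutant 4 or control 3. The 7 markers of arch mesenchyme had sums of 21791 to 23627 in mutants and 25519 to 29855 in controls. Among these 5 lists the gene with the smallest p was Msx1 (-0.58, adjusted p = 0.067), Epb42, Tie1, Krt14 and Pax1 (-1.64, adjusted p = 0.113) in turn. Msx1 passed in 3 of 17 alternatives (such as without control 1) and Pax1 in 2 of 16 (with array weights, and without control 4). The part of these markers in the results below was not tested.

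No detection calls were used. The probe sets of 18 genes known from other organs (the gene with the smallest p was Crygd) averaged 3.43 to 7.89, with a median of 5.62. All 18 read lower than the probe sets of Myf5, Myod1, Myog, Msc, Met and Ebf3, while 17 read lower than Tcf21, 15 lower than Lbx1 and 5 lower than Myf6. The values of Myf6, and partly those of Lbx1, thus lay among those of genes that the arch is not known to use. Brightness differs between probe sets for technical reasons and does not order the genes by RNA level.

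Myf5, the first myogenic factor to appear in muscle precursors, read 9.14, 9.22, 8.89 and 8.94 in mutant replicates 1 to 4 and 9.496, 8.19, 8.48 and 8.81 in control replicates 1 to 4. Control 1 held the highest value of all 8 arrays and the other 3 controls the 3 lowest. The means were 9.05 ± 0.157 in mutants and 8.74 ± 0.562 in controls (SD, n = 4 each), and the log2 fold change was 0.30 ± 0.238 (SE). Its 95% interval ran from -0.23 to 0.84, and it did not pass (adjusted p = 0.657; exact permutation p = 0.314).

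Myod1, which commits precursors to muscle, read 8.51, 8.73, 8.20 and 7.58 in the mutants and 9.15, 8.10, 8.16 and 7.66 in the controls. Replicate 4 was the lowest array in each group, and control 1 was again the highest. The means of 8.25 ± 0.502 in mutants and 8.27 ± 0.629 in controls differed by -0.01 ± 0.324 (SE; 95% interval -0.74 to 0.71, adjusted p = 0.99). A second, dim probe set of Myod1 differed by 0.02.

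Myog, the factor of terminal differentiation, had the largest spread of the members. It read 9.52, 10.04, 9.31 and 8.05 in the mutants and 10.76, 8.99, 9.18 and 8.09 in the controls. Control 1 exceeded mutant 4 by 6.55-fold, while the group means of 9.23 ± 0.841 in mutants and 9.26 ± 1.11 in controls (SD, n = 4 each) lay close together. The log2 fold change was -0.03 ± 0.555 (SE, adjusted p = 0.989), and its interval from -1.27 to 1.22 still allows a change of over 2-fold either way.

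Myf6 stayed dim, at 4.67, 4.78, 4.85 and 4.37 in the mutants and 4.36, 4.56, 4.61 and 4.67 in the controls. The groups overlapped, with a log2 fold change of 0.12 ± 0.115 (SE; adjusted p = 0.724). Myf5 and Myf6 are neighbours on chromosome 10 in the RefSeq table.

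The stretches of DNA before the starts of these genes are shown for Myog, which varied over the arrays with the muscle differentiation genes, and for Myf5, which did not pass that test. Myogenic factors bind E-boxes, and the counts below take every match to the general form of this motif, whichever protein may bind it. Of the 9 members, 5 have a promoter window in the RefSeq tables (GRCm38.p6). Each sequence gives the 250 bases before the start on the gene's own strand, 5′ to 3′, with the E-box CANNTG in capitals; this motif reads the same on both strands. Myog lies on the plus strand and its window is chr1:134289754-134290003, and Myf5 lies on the minus strand with the window chr10:107486135-107486384.
Myog: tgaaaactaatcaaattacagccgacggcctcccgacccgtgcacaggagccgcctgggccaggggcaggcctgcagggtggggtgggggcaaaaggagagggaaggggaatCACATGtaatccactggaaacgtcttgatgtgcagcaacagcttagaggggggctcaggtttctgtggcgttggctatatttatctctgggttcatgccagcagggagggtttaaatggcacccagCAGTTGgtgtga
Myf5: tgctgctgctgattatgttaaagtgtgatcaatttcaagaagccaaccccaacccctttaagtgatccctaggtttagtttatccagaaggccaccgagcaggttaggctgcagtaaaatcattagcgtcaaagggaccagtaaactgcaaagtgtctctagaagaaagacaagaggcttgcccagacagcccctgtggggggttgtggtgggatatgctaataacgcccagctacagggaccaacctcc

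The Myog window held 2 E-boxes, which begin 138 and 12 bases before the start, and the Myf5 window held 0. Of 32851 mouse windows of this length, 31.8% held at least 2 and 33.8% held none. Met had 1, which begins 126 bases before its start, and Tcf21 and Ebf3 had 0. Of the muscle differentiation genes treated below, 22 had a window, of which 20 held at least 1 E-box and 12 held at least 2, against 66.2% of all windows with at least 1. A match is a description of the letters and not a binding site. Whether E-boxes relate to how a gene varied over the arrays was not tested, and Myod1 has no window.

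**Figure D2:**
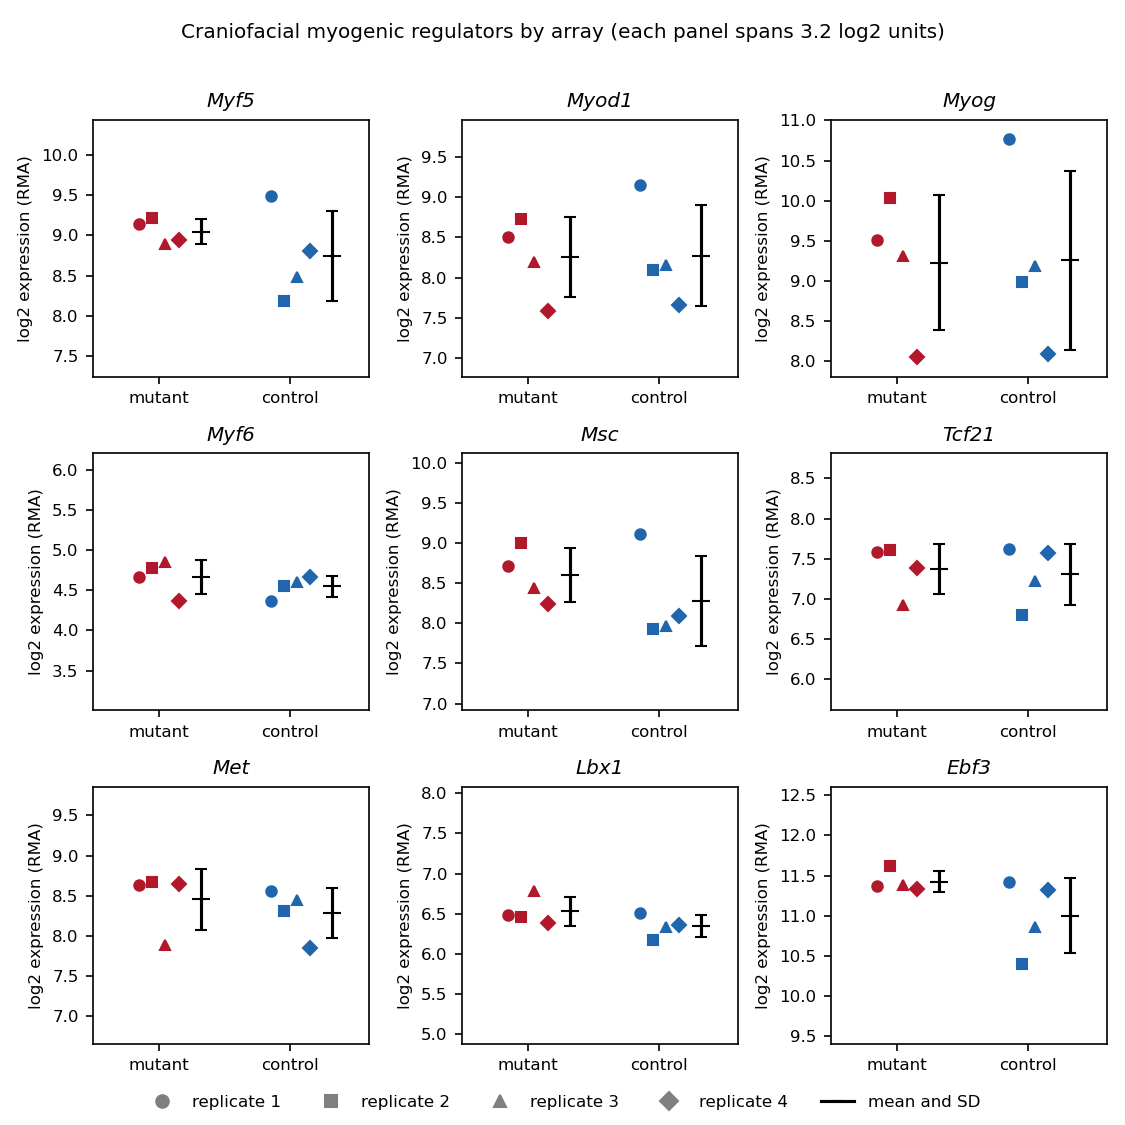
Log2 signal of the brightest probe set of each of the 9 regulators on every array, mutants left of controls in each panel, with marker shapes for replicates 1 to 4 and black bars for the group mean and SD; each panel spans the same number of log2 units. Control 1 is the highest array for Myf5, Myod1, Myog, Msc and Tcf21, and the groups overlap in every panel.

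The groups also overlapped for both repressors. Msc (musculin), a helix-loop-helix repressor of the jaw muscle precursors, read 8.72, 9.004, 8.44 and 8.24 in the mutants and 9.11, 7.92, 7.97 and 8.09 in the controls. Control 1 was the highest array and the other 3 controls were the 3 lowest. The means of 8.60 ± 0.333 in mutants and 8.28 ± 0.562 in controls differed by 0.32 ± 0.265 (SE; 95% interval -0.27 to 0.92, adjusted p = 0.668).

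Tcf21 (capsulin), which in mice acts together with Msc in the first arch, read 7.58, 7.60, 6.93 and 7.38 in the mutants and 7.62, 6.80, 7.23 and 7.57 in the controls. High and low arrays occurred in both groups, and the log2 fold change was 0.07 ± 0.203 (SE; adjusted p = 0.916). The second, dimmer probe set differed by 0.06.

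In the RefSeq table, Msc lies next to Eya1 on chromosome 1 and Tcf21 next to Eya4 on chromosome 10. Both Eya genes, co-activators of homeobox factors such as Six2, fell in the mutants while the adjacent repressors did not pass. Eya4 fell by 0.93 on the log2 scale and Eya1 by 0.76, against the changes of 0.07 for Tcf21 and 0.32 for Msc. The difference between neighbours was not tested.

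Met, the receptor for hepatocyte growth factor on migrating muscle precursors, read 8.63, 8.67, 7.89 and 8.65 in the mutants and 8.56, 8.31, 8.45 and 7.85 in the controls. In each group 1 array was well below the others, mutant 3 and control 4. The log2 fold change was 0.17 ± 0.203 (SE; 95% interval -0.29 to 0.63, adjusted p = 0.774). Without mutant 3 the mutants lay above the controls without overlap, by 0.36 (adjusted p = 0.278). Of all genes, 16.8% then showed no overlap, counted with either group higher. A second, dim probe set of Met averaged 4.70 in both groups.

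Lbx1, a homeobox factor of precursors that migrate into the limbs and tongue, read 6.48, 6.47, 6.79 and 6.38 in the mutants and 6.50, 6.18, 6.34 and 6.36 in the controls. Mutant 3 was the highest array, control 1 lay above the other mutants, and the other 3 controls were the 3 lowest. The log2 fold change was 0.18 ± 0.106 (SE; adjusted p = 0.520), and without mutant 3 it was 0.10. The second probe set differed by 0.05.

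Ebf3, a helix-loop-helix factor that in mice takes part in muscle formation with Myod1, had the largest change among the members. It read 11.37, 11.61, 11.38 and 11.33 in the mutants and 11.42, 10.40, 10.86 and 11.32 in the controls. Controls 2 and 3 were low, and controls 1 and 4 lay among or next to the mutants. The means were 11.42 ± 0.128 in mutants and 11.00 ± 0.470 in controls, a difference of 0.42 ± 0.201 (SE; 95% interval -0.03 to 0.88). It did not pass (adjusted p = 0.409; exact permutation p = 0.171), and the other 2 probe sets differed by 0.44 and 0.48.

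Control 1 was the array that made 4 members overlap. Without it, the mutants lay above the 3 remaining controls for Myf5, Msc, Lbx1 and Ebf3. Of all genes, 13.4% showed no overlap in that setting, counted with either group higher. The gap was narrow for Lbx1 (lowest mutant 6.38, highest of these controls 6.36) and for Ebf3 (11.33 and 11.32). The log2 fold changes were then 0.55 for Myf5 (adjusted p = 0.180), 0.60 for Msc (adjusted p = 0.192), 0.24 for Lbx1 (adjusted p = 0.526) and 0.56 for Ebf3 (adjusted p = 0.303). None of the 9 passed in that fit.

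The regulators varied more between arches of 1 group than most genes did. Their pooled within-group SD had a median of 0.348, against 0.1497 over all genes, and all 9 lay above the median of all genes. That of Myog was 0.985, larger than for 99.9% of genes. Those of the dim Lbx1 (0.158) and Myf6 (0.178) were larger than for only 54.1% and 64.0% of genes.

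Myod1 and Myog varied over the arrays together with muscle differentiation genes. Whether they regulate these genes here was not tested. A list of 27 differentiation genes downstream of the myogenic factors was measured in full, with receptors of the neuromuscular junction, fusion proteins and sarcomere components. Their mean deviation from the 8-array mean was 0.13, 0.49, -0.00 and -0.53 in mutants 1 to 4 and 0.93, -0.15, -0.20 and -0.68 in controls 1 to 4. Control 1 was the highest array for 22 of the 27, and replicate 4 of either group the lowest for 22.

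Single genes of the list showed the same order. Mymx, a fusion protein of muscle cells, read 7.43, 7.80, 6.65 and 5.47 in the mutants and 9.07, 6.87, 7.02 and 5.40 in the controls. Tnnt1, the slow skeletal troponin T, read 10.73, 11.04, 10.61 and 9.92 in the mutants and 11.49, 10.38, 10.54 and 10.001 in the controls. Myh3, the embryonic myosin heavy chain, read 7.85, 8.64, 7.65 and 6.18 in the mutants and 9.32, 7.47, 6.82 and 5.72 in the controls. For each of these 3 genes, chosen as examples after their values were seen, control 1 was the highest array and replicate 4 the lowest of its group.

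After the group means were removed, Myog correlated with the mean of the list over the 8 arrays at r = 0.987 (Spearman's rho = 0.952; exact permutation within groups p = 0.00347, adjusted over the 9 members 0.0156). Myod1 gave r = 0.987 and rho = 0.952, with the same p-values. Without the 2 arrays farthest from the median of the list, controls 1 and 4, r was 0.976 for Myog and 0.981 for Myod1. When 1 array was left out, r stayed between 0.9798 and 0.994. The adjusted p of both by exact permutation was 0.0625, short of the threshold, without control 1 or any 1 mutant. Every fit with 7 arrays has fewer arrangements than 8 arrays allow, and the cause of the loss in these fits was not tested.

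Msc came next at r = 0.905 and rho = 0.833, short of the threshold (exact permutation p = 0.0174, adjusted p = 0.0521). Myf5 gave r = 0.671 and rho = 0.595 (exact permutation p = 0.191, adjusted p = 0.430), and without control 1 its r was -0.03. In replicate 4 of both groups, where Myog was more than 1 log2 unit below its mean, Myf5 was within 0.1 of its own mean. The other 5 members gave r between -0.08 and 0.46, and none passed. Whether the correlation of Myog differed from that of Myf5 was not tested.

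**Figure D3:**
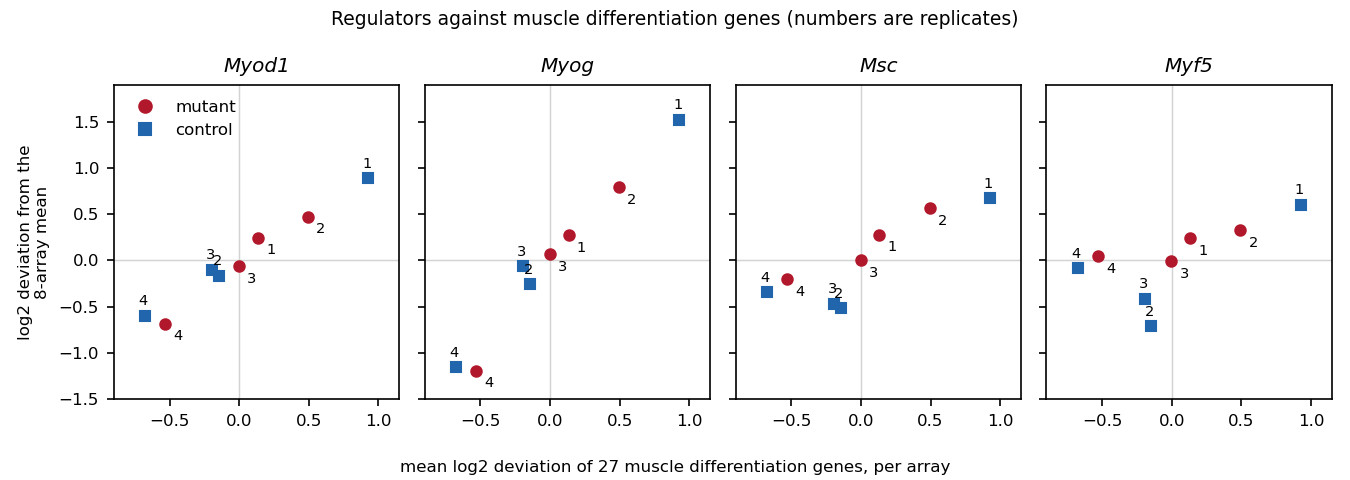
Log2 deviation of Myod1, Myog, Msc and Myf5 from the 8-array mean (vertical axis) against the mean log2 deviation of 27 muscle differentiation genes (horizontal axis), 1 point per array, circles for mutants and squares for controls, numbered by replicate. Myod1 and Myog increase along the axis through both groups, from replicate 4 at the low end to control 1, and Myf5 does not follow that order.

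Between the members themselves, 36 pairs were compared in the same way, and 0 passed after adjustment. The highest r was that of Myod1 with Myog, 0.993 (rho = 1; exact permutation p = 0.00174, the smallest that arrangements within groups can give, adjusted p = 0.0625). Myf5 with Msc followed at 0.904 (rho = 0.810; exact permutation p = 0.00347, adjusted p = 0.0625). Without the 2 arrays farthest from the median of the first gene, these became 0.9805 and 0.8045. Tcf21 with Ebf3 gave 0.814 (rho = 0.857; exact permutation p = 0.0174, adjusted p = 0.125). Of the 36 pairs, 28 had r above 0.

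Among the 9096 genes above the median level, those most like a member over the 8 arrays (highest Pearson r of the log2 values) also differed. For Myog they were Tnnt1 (0.997), Rbm24 (0.995), an RNA-binding protein of muscle, and Actc1 (0.993), the cardiac alpha-actin that embryonic skeletal muscle also uses. For Myod1 they were Tnnt1 (0.994), Myog (0.993) and Synpo2l (0.993). For Myf5 they were Ptgis (0.982), Shroom3 (0.962) and Scrn1 (0.950), and for Msc they were Lrig1 (0.978), Lbh (0.969) and Bex3 (0.944). For Met they were Ubfd1 (0.959), Myc (0.954) and Haus4 (0.952), and for Ebf3 they were Fap (0.976), Pcbp1 (0.974) and Scp2 (0.972). The genes nearest to Myog and Myod1 include members of the differentiation list, and those nearest to the other 4 do not. With 9096 genes and 8 arrays, high values arise among many genes, so these are a description only.

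With the mean of the differentiation list as a covariate, a fit chosen after the data were seen, the change of Myog was -0.11 with an interval of -0.36 to 0.15, and that of Myod1 was -0.06 with an interval of -0.25 to 0.13. Both intervals were narrower than without the covariate. With group means removed, the list correlated with both genes at r = 0.987, so narrower intervals were bound to follow. The fit gives their change relative to the list, and it does not bound their own change between the groups more tightly. In that fit Msc differed by 0.29 ± 0.132 (SE; adjusted p = 0.398) and 0 of the 9 passed.

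No gene of the differentiation list passed the test between the groups either. The 27 genes had a median log2 fold change of 0.00 against -0.01 over all genes, and 1 had an unadjusted p under 0.05. The smallest p-values were those of Des, the muscle intermediate filament desmin (0.30, adjusted p = 0.221), and Tnni1, the slow troponin I (0.53, adjusted p = 0.688). The partners of the myogenic factors gave 0 calls in 7 genes with a median of -0.05, with the E protein Tcf4 at -0.25 (adjusted p = 0.311) and Mef2c, a co-factor of myogenic transcription, at -0.50 (adjusted p = 0.347). At an unadjusted p under 0.05, 2 of these 7 passed. Of the EBF family and its binding partners, 0 of 5 passed, with a median of -0.13, against 2 at an unadjusted p under 0.05. Ebf4 was at -0.26 (adjusted p = 0.193) and Ebf2 at -0.52 (adjusted p = 0.353).

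Among the listed factors of muscle progenitors, of the head or of the trunk, 5 of 13 measured fell, 0 rose and 8 did not pass. Over all genes, 2.14% were called. The list was chosen with earlier results of these data known, so its count is not independent of them. The 13 had a median of -0.20, with 4 above 0, and the other 2 on the list were not analysed here. Pax3, the paired-box factor of trunk muscle precursors that neural crest cells also use, read 7.81, 7.86, 7.63 and 7.52 in the mutants and 9.54, 10.24, 9.99 and 9.06 in the controls. It was lower in all 4 mutants, with means of 7.70 ± 0.156 in mutants and 9.71 ± 0.518 in controls, and fell by 2.004 ± 0.222 on the log2 scale (SE; adjusted p = 0.004).

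Meox2, a homeobox factor of somite-derived muscle and of mesenchyme, averaged 7.27 ± 0.652 in mutants and 9.27 ± 0.542 in controls, a change of -1.998 ± 0.341 (SE; adjusted p = 0.021). Six2 averaged 8.27 in mutants and 9.42 in controls (-1.15 ± 0.145, adjusted p = 0.006). Eya4 averaged 9.68 in mutants and 10.61 in controls (-0.93 ± 0.118, adjusted p = 0.006), with 1 dim probe set at 0.00. The fifth gene was Eya1, at -0.76 (adjusted p = 0.011). Pax3, Six2 and Eya4 passed in 17 of 17 alternative fits and Meox2 in 13, with the call lost without mutant 4 or control 1, 2 or 3. The 8 others did not pass, among them Tbx1 (-0.20), Isl1 (-0.16), Pax7 (0.28) and Lhx2 (0.72, adjusted p = 0.069), which were named after their values were seen. These genes are not confined to muscle precursors, and the arrays do not tell in which cells they fell. Tubb3, the neuronal marker that fell, had the same direction as Pax3, and its part in the result was not tested.

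Of 16 inhibitors of myogenic factors, such as Id and Hey proteins, 1 fell and 0 rose, with a median of -0.14. Over all genes, 2.14% were called. Of the 16, 14 lay below 0 and 2 above, and 5 had an unadjusted p under 0.05 in limma, against 13.5% of all genes. For 4 of them the mutants were lower without overlap, against 7.02% of all genes. Hey2, a Notch target, read 6.91, 6.95, 6.58 and 6.53 in the mutants and 9.22, 9.73, 9.69 and 7.42 in the controls. Control 4 was far below the other controls but above every mutant, and Hey2 fell by 2.27 ± 0.443 (SE; adjusted p = 0.035). The call was lost in 8 of 17 alternatives, which include leaving out any 1 mutant or control 1, 2 or 3, with adjusted p up to 0.128.

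On the receptor side, the ligand of Met was higher in the mutants. Hgf, the hepatocyte growth factor that guides migrating muscle precursors, read 7.41, 7.24, 6.78 and 7.18 in the mutants and 6.69, 6.20, 6.404 and 6.53 in the controls. All 4 mutants lay above all 4 controls, and Hgf rose 1.62-fold (0.70 ± 0.145 on the log2 scale, SE; adjusted p = 0.044). Its other probe sets differed by 0.70 and 0.27. The call was lost in 9 of 16 alternatives, with adjusted p up to 0.155, among them the fits without any 1 control and without mutant 1, 2 or 4. The macrophage markers above rose on the same arrays, and their part in the Hgf result was not tested.

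Hgf was the only call among the 13 genes of Met activation and its adaptors, whose median was 0.02. In the list of 6 genes of precursor migration, Hgf rose, Pax3 fell and 4 did not pass. Gab1, the adaptor of the Met receptor, stood at -0.31 (adjusted p = 0.270) and Cxcl12, the ligand of Cxcr4, at 0.17 (adjusted p = 0.535), both named after their values were seen.

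**Figure D4:**
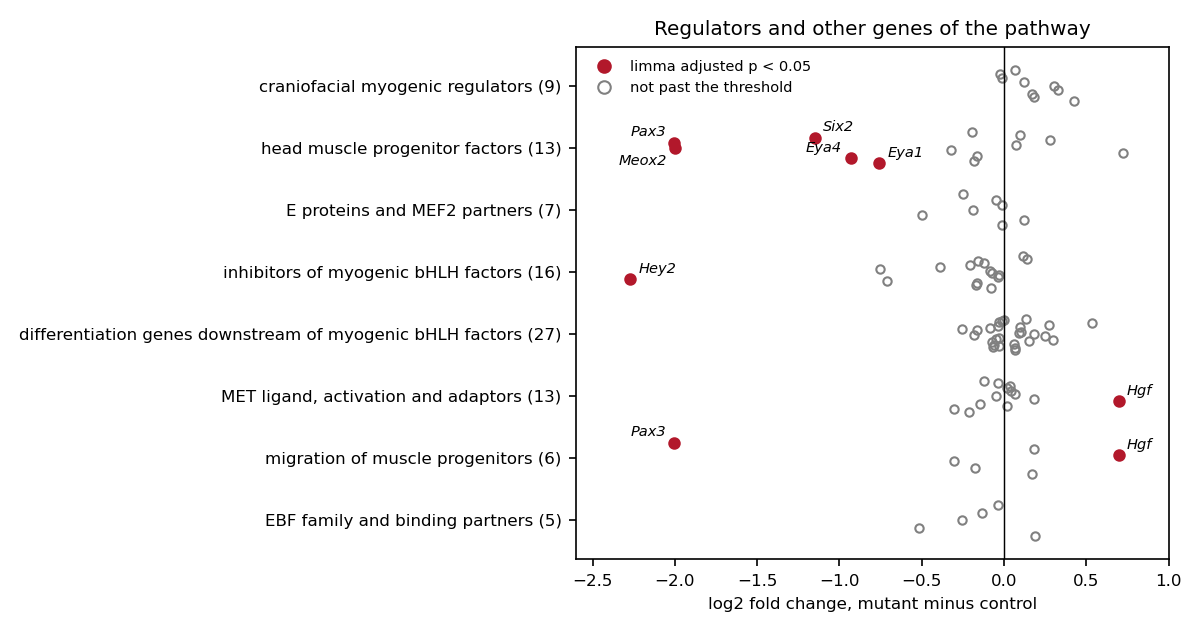
Log2 fold change, mutant minus control, of every measured gene in the member list and 7 other lists, 1 point per gene, with filled points for limma adjusted p under 0.05 and list sizes in brackets. The 9 regulators lie between -0.03 and 0.42 with no filled point. The filled points are Pax3, Meox2, Six2, Eya4, Eya1 and Hey2 on the left and Hgf on the right. Unfilled points lie about as far out as Eya1 and Hgf, such as Id4 (-0.75) and Lhx2 (0.72), named after their values were seen.

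Where mutant 3 stood apart, it read highest of the mutants for the dim Lbx1 and Myf6 and lowest for Met and Tcf21. Without it, the log2 fold changes were 0.36 for Myf5, 0.00 for Myod1, -0.06 for Myog, 0.06 for Myf6, 0.38 for Msc, 0.22 for Tcf21 and 0.44 for Ebf3, and 0 of 9 passed among 618 calls over all genes.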

How the data were processed

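The authors deposited log2 expression values per probe set for 8 arrays, 4 mutant and 4 control, made with RMA (version not given in the sources used here), per the submitters' processing notes. It corrects background, equalises the arrays and summarises probes, and it shrinks differences of dim probe sets. The values were used as deposited. Of 45101 probe sets, 34958 had 1 gene symbol, 932 several and 9211 none, by the platform annotation, and 34754 of the first matched RefSeq by Entrez identifier.

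The brightest probe set stood for each gene. Limma 3.58.1 (R 4.3.3; lmFit, eBayes, no covariates) compared mutants with controls over 18194 genes, with Benjamini-Hochberg adjustment, and gave 390 genes at an adjusted p under 0.05, 152 higher and 238 lower. A gene rose or fell only where it passed. Exact permutation tests were two-sided and ran in Python 3.11.15 with scipy 1.17.1. Errors are SD over arrays or SE of the fit. The number of arrays limits the precision, and no depth applies. The steps were tested on simulated arrays.

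The members and the gene lists were chosen with earlier results of these data known. The named genes were the members, Tgfbr1, up to 4 called genes of each pathway list by size of change (or the 2 with the smallest p), the 3 genes most like each bright member, and 1 gene of each marker list; Eya1 and the others so marked were named after their values were seen. The replicate numbers are shared by the groups, and the labels do not say whether they pair the arrays. The deviations of same-numbered arrays correlated at 0.03, 0.00, -0.12 and 0.41 for replicates 1 to 4. These values were not tested and do not settle whether the arrays are paired. The main fit treated them as unpaired. Alternatives covered the choice of probe set, a filter on dim genes, normalization, variance model, array weights, the replicate block, a threshold of 0.1, leaving out each array, and the differentiation covariate, which was added after the data were seen.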

Additional observations from a re-analysis of the deposited data

Results flagged for a closer look

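Of 78 groups of 4 arrays examined, 6 had 1 array far from the other 3, where chance gives about 1 in 20. Mutant 2 read 11.61 for Ebf3, above the other mutants at 11.33 to 11.38. Mutant 3 read 7.89 for Met, below the other mutants at 8.63 to 8.67. The same array read 5.94 for the second probe set of Tcf21, above the other mutants at 5.43 to 5.51, and 6.51 for the second probe set of Tgfbr1, below the other mutants at 7.22 to 7.33. Control 1 read 9.11 for Msc, above the other controls at 7.92 to 8.09, and 7.74 for Des, above the other controls at 7.44 to 7.48.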

How the results depend on the processing

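The count of members past the threshold was 0 in every alternative fit, and the changes of Myf5, Myf6, Msc, Met, Lbx1 and Ebf3 stayed above 0 in each. The sign of 3 small changes turned, none with a call. Myod1 stood at 0.0038 with the mean of its probe sets, 0.0567 after quantile normalization and 0.0467 with array weights, and between -0.22 (without control 4) and 0.28 (without control 1) when 1 array was left out. Myog stood at 0.0472 after quantile normalization and between -0.42 (without control 4) and 0.48 (without control 1). When 1 array was left out, Tcf21 lay between -0.10 (without control 2) and 0.22 (without mutant 3), and with array weights it reached 0.227. The cause was not tested.

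The count over all genes was 620 after quantile normalization, 1356 with array weights, which gave mutant 3 a weight of 0.108, and 664 at an adjusted p under 0.1. It ran from 104 to 618 when 1 array was left out, lowest without control 3. The count of inhibitors was 2 after quantile normalization, 0 with a trended, robust variance, 3 with array weights and 2 at the looser threshold. The list of Met activation had 0 calls and that of migration 1 with genes above the median level only, with each array centred on its median, and with the differentiation covariate. For the first of these the cause is that Hgf was not among the genes tested. Array weights gave 1 call among differentiation genes (Des) and 1 in the EBF family (Ebf4).

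Leaving out 1 array gave 3 to 6 progenitor factors, 0 to 2 inhibitors, 0 to 1 genes of Met activation, 1 to 2 of migration and 0 to 4 members whose groups did not overlap. The correlation with the differentiation list ran from 0.9798 to 0.994 for Myod1, 0.982 to 0.993 for Myog, 0.718 to 0.97496 for Msc, with an adjusted p of 0.0417 by exact permutation without control 4, and -0.0303 (without control 1) to 0.852 for Myf5.

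With the replicate block, which pairs same-numbered arrays, 293 genes passed and 0 of the 9 members, and Pax3 stood at -2.004. The 4 arrays of a group limit what can be seen: for Myog and Myod1 the intervals are wide. Dim probe sets (Myf6, Lbx1) limit the change that can be read.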
